A study of Mus musculus with 14 samples.

Results

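Immature natural killer (iNK) cells from the bone marrow of Il15 conditional knockout (cKO) mice were compared with iNK cells of control mice across 26990 expressed genes. The comparison used 7 of the series' 14 RNA-seq libraries, chosen by their labels: 3 of control iNK and 4 of cKO iNK. Controls carried a floxed allele and a constitutive knockout allele of Il15 (Il-15-flox/KO). The cKO mice had the same pair of alleles and the Vav-Cre transgene (Vav-Cre;Il-15-flox/KO), so even the controls had only a floxed copy of Il15. Vav-Cre acts in blood-forming cells and their descendants, and Il15 in stroma and other cells outside the blood lineage is not its target. The mice were 8 weeks old, on the C57BL/6 strain, and 2000 cells were sorted per sample. The iNK gate took CD3-, IL-7Ra- and CD11b-negative cells that bore NK1.1, DX5 and CD27. The other 7 libraries (3 control and 4 cKO) held immature type 1 innate lymphoid cells (iILC1; NK1.1, IL-7Ra and CD49a positive) of the same genotypes, and serve here to test whether a change differed between the cell types.

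Natural killer cells are lymphocytes that kill infected or transformed cells without a rearranged antigen receptor. They depend on interleukin 15 (IL-15), which binds a receptor made of the IL-2 receptor beta chain and the common gamma chain and signals through the kinases JAK1 and JAK3 to the transcription factor STAT5. STAT5 in turn switches on genes for survival, growth and division, and also genes of the SOCS family, whose proteins damp the same signal. In the bone marrow, immature NK cells pass through a dividing stage and then take up the surface receptors and granule proteins of mature cells.

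STAT5 binds DNA at the letters TTCNNNGAA, so the RefSeq promoters (GRCm38.p6, 250 bases before to 50 bases after a transcription start) of the changed genes were searched for these letters, which read the same on both strands. Of the 70 genes that were lower in cKO iNK libraries, 54 had a promoter in the table, and 8 of these 54 (14.8%) held a match. A match stood in 2 of 28 promoters of higher genes (7.14%), and in 9.55% of all 27025 genes with a promoter. The letters of E2F sites (TTTCCCGC) stood in 3.7% of the lower genes and in 1.24% of all genes, and those of the cell cycle element CHR (TTTGAA) in 20.4% and 20.2%, on either strand. Each motif was counted on its own, and matches of different motifs could overlap. The promoters below belong to Cish, Clnk and Serpina3g, 3 lower genes outside the well-known effector and cell cycle lists that held a match, with the matches in capitals. They lie at chr9:107296409-107296708 (plus strand), chr5:38876644-38876943 (minus strand) and chr12:104235897-104236196 (plus strand).
Cish: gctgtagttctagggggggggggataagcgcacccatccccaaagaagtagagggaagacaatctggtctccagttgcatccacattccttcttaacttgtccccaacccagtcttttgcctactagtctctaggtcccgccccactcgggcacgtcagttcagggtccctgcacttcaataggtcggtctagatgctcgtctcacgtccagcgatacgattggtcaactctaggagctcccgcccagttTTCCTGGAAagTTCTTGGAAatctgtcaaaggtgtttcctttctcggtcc
Clnk: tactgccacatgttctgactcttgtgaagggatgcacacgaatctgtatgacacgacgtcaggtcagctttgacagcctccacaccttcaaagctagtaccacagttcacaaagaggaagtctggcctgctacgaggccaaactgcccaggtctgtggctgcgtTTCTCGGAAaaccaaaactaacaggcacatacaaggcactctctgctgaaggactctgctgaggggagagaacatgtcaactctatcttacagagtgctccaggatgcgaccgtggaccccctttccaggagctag
Serpina3g: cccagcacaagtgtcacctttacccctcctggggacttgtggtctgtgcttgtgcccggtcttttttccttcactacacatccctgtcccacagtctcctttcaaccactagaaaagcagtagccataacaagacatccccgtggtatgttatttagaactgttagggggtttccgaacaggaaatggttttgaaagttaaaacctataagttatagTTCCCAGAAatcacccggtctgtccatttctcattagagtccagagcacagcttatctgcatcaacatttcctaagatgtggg
Cish had 2 matches, TTCCTGGAA and TTCTTGGAA, which began at transcribed bases 1 and 12. The match of Clnk, TTCTCGGAA, began 86 bases before the start, and that of Serpina3g, TTCCCAGAA, 33 bases before it. The other lower genes with a match were Cdc45, Gzmb, Ifng, Tacc3 and Tnfrsf9, and the higher ones were H2-DMb2 and Il7r. A match is a description of the sequence and shows no binding.

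Total counts were 6238016 to 8013984 in the control and 6254844 to 12572326 in the cKO libraries. All 12 NK cell markers had counts in each library, and their summed level was 10552 to 16936 CPM (counts scaled to library size with TMM factors) in control and 9303 to 13778 CPM in cKO. Olfactory and vomeronasal receptor genes, which lymphocytes should not express, summed to 1613, 1847 and 2897 CPM in the 3 control libraries and 1994 to 3036 CPM in the 4 cKO libraries. Il15 itself stood at 11.03, 10.3 and 8.12 CPM in control and 11.1, 10.3, 8.53 and 12.2 CPM in cKO libraries (log2 fold change 0.11, SE 0.285, adjusted p = 0.954). The groups overlapped. Control replicate 1 lay farthest from the other iNK libraries on the first principal component, and 36 of the 100 named calls were lost without it. The loss was not particular to this library. Of all 110 calls given below, 70 were kept without it. Leaving out another single iNK library kept 60 (without cKO replicate 1) to 78 (without cKO replicate 2). A count over all exons does not resolve the floxed part, so Il15 gives no check of the deletion or of the labels here.

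edgeR's quasi-likelihood test, fitted on all 14 libraries with Benjamini-Hochberg adjustment over all genes, called 110 of 26990 genes at an adjusted p under 0.05 (0.408%). Of these, 40 were higher (0.148%) and 70 lower (0.259%) in cKO. Libraries of both genotypes did not overlap in 69 of the 70 lower genes, all but Ifng, and in 39 of the 40 higher genes, all but Btla, against 8.83% of all genes tested in either direction and 4.74% for lower values in cKO. With the genes on the lists of known effector, cell cycle and B-lineage genes set aside, 50 lower and 22 higher genes with a gene name remained. The 22 still include class II genes absent from the list (H2-DMb2 and H2-Ob) and genes also found in B cells, such as Siglecg, Pou2af1 and Btla. The others of the 22 were not checked for expression in B cells. Of the 50 and the 22, 20 lower and 7 higher genes were called in each of 18 other settings that tested them. These settings include the omission of any of the 7 iNK libraries. H2-DMb2 and Siglecg are among the 7.

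Estimates depended on level, and this sets the scale for every list below. Over the 7 iNK libraries, genes with a mean of at most 3 CPM had a median log2 fold change of 0.22, and genes of 3 to 10 CPM one of 0.23. The median was −0.13 at 30 to 100 CPM and −0.19 above 100 CPM, where 83.4% of 2576 genes had an estimate below 0. For all 6949 genes over 30 CPM the median was −0.15, with 75.5% below 0. The lower calls were mostly of genes at 10 CPM or more, with 67 of 70 there. With the summed level of the background receptor genes as a covariate, the medians given below for the JAK-STAT, cytokine receptor, NK surface receptor, feedback phosphatase and sterol lists turned from below to above 0, at 0.039, 0.030, 0.049, 0.037 and 0.002. That of the transcription factors, close to 0, took either sign across settings.

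**Figure D1:**
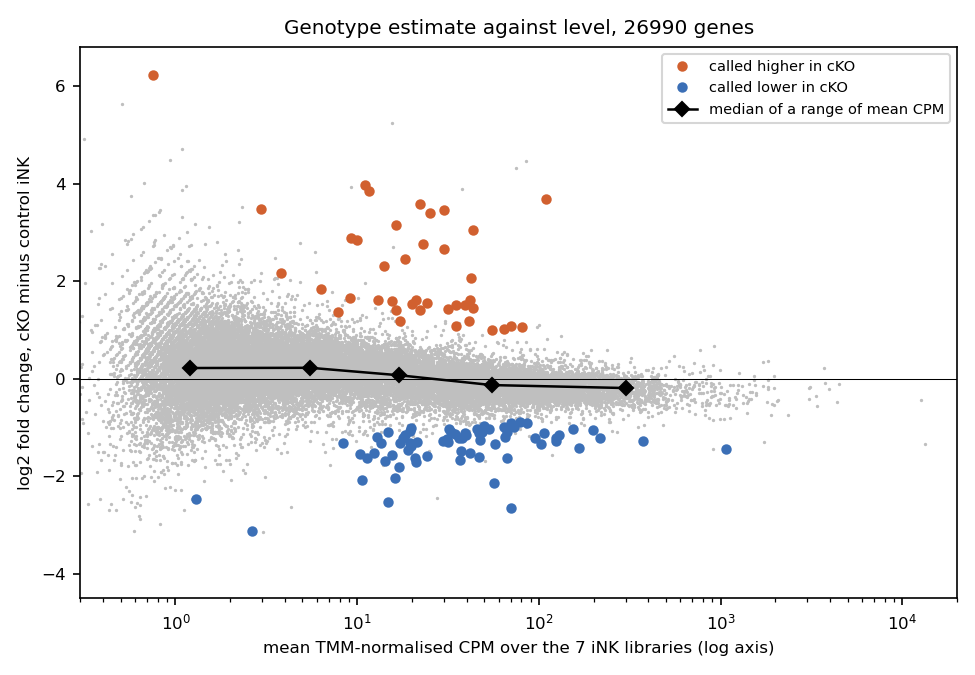
Log2 fold change of cKO minus control iNK for each of 26990 genes (vertical axis) against its mean TMM-normalised CPM over the 7 iNK libraries (horizontal log axis). Orange and blue points are the 40 higher and 70 lower calls, and black diamonds are medians of 5 ranges of mean CPM, which go from 0.22 at the lowest to −0.19 at the highest levels.

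Cish, whose protein blocks the IL-2 and IL-15 receptors, stood at 14.9, 17.1 and 27.1 CPM in the control and at 6.7, 6.76, 6.72 and 7.12 CPM in the cKO libraries. The cKO libraries lay within a narrow band below all 3 controls, and the fall was −1.52 on the log2 scale (SE 0.252, adjusted p = 0.00104). Socs2, of the same family, stood at 22.2, 26.4 and 31.8 CPM in control and 14.9, 11.6, 11.2 and 10.7 CPM in cKO. It fell by 1.15 on the log2 scale (adjusted p = 0.00793), and the call was lost without control replicate 3 (adjusted p = 0.0813). Socs1, at 23.3 to 38.4 CPM in control and 6.76 to 20.8 CPM in cKO, had an adjusted p = 0.0564. Of 24 genes listed for STAT5 feedback and JAK-STAT signalling, Cish and Socs2 were the 2 called lower and none was called higher, and the list's median was −0.17. The signal carriers had estimates near 0, with Stat5a at 0.13, Stat5b at 0.08 and Jak1 at 0.23 on the log2 scale. The exons of Cish share bases with 2 predicted genes on the other strand, whose reads could not be told apart without strand.

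Among 30 cytokine receptor chains tested, Il7r was the 1 called, and the list median was −0.08. The IL-15 receptor chains Il2rb (−0.41), Il2rg (−0.33) and Il15ra (−0.03) did not pass. Il7r encodes the IL-7 receptor chain, which the gate excluded at the cell surface. It stood at 6.99, 6.68 and 11.3 CPM in control and at 15.5, 26.8, 19.8 and 26.9 CPM in cKO iNK, without overlap (log2 fold change 1.42, SE 0.27, adjusted p = 0.00565). In the iILC1 libraries, which were sorted as IL-7Ra positive, the gene lay far above this, at 349 to 714 CPM. The call was lost without control replicate 1 (adjusted p = 0.0666) or 2 (adjusted p = 0.092). Among survival genes of the BCL2 family and caspases, 1 of 23 was called. This was Bcl2l1, for the survival protein BCL-XL, at 119, 97.4 and 71.6 CPM in control and 52.2, 39.5, 35.7 and 41 CPM in cKO, and its call was lost without control replicate 1 (adjusted p = 0.0914). Its relative Bcl2 stood at 590 to 759 CPM in control and 261 to 410 CPM in cKO without overlap, and missed the threshold (adjusted p = 0.0797).

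Receptors that couple to G proteins, or resemble those that do, held some of the largest decreases. Adgrg5, an adhesion-type receptor (chromosome 8, 94923694 to 94943290), stood at 98.1, 92.8 and 111 CPM in control and at 30.3, 24.4, 20.3 and 17.5 CPM in cKO. Each control library was over 3 times the highest cKO library, and the log2 fold change was −2.13 (SE 0.231, adjusted p = 7.68e-07). F2r, which encodes the thrombin receptor PAR1, stood at 134, 102 and 89.3 CPM in control and at 35.5, 29, 38.3 and 38.6 CPM in cKO. It fell by 1.62 on the log2 scale (SE 0.252, adjusted p = 0.000422). F2rl2, for the related protease-activated receptor PAR3, stood at 21.9, 17.6 and 16.5 CPM in control and at 5.18, 5.93, 4.65 and 2.2 CPM in cKO libraries (log2 fold change −2.08, SE 0.305, adjusted p = 0.000178). Neither gene's groups overlapped.

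These protease-activated receptor genes are neighbours on chromosome 13 (mm10), with F2r at 95601804 to 95618459 and F2rl2 at 95696853 to 95702739, a gap of 78394 bases. Both are on the list of G protein-coupled receptors, as are the other members of their family. F2rl1, for PAR2, lies on the far side of F2r at 95511732 to 95525240, and its libraries overlapped, at 7 to 18.9 CPM in control and 3.31 to 9.44 CPM in cKO libraries (log2 fold change −0.85, adjusted p = 0.546). F2rl3, for PAR4, on chromosome 8, stood at 11.03, 11.2 and 12.3 CPM in control and at 4.11, 4.41, 3.23 and 7.54 CPM in cKO libraries (log2 fold change −1.23, adjusted p = 0.0926). All 4 estimates of the family were thus below 0, and 2 passed the test. The family was picked out after the values of F2r and F2rl2 were seen.

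Paqr4, for a membrane protein of the progestin and adipoQ receptor family, stood at 32.3, 23.6 and 29.9 CPM in control and 9.59, 5.38, 4.4 and 8.39 CPM in cKO libraries (log2 fold change −2.04, SE 0.313, adjusted p = 0.000341). Its exons share bases with Pkmyt1 on the other strand. Adgrg5, F2r, F2rl2 and Paqr4 were the 4 called members of 31 G protein-coupled and lipid mediator receptors, where the median was −0.31 and no gene was called higher. This list was chosen with earlier results of these data known. The receptors S1pr1 (0.1) and Gpr183 (0.6), which guide lymphocyte traffic, had estimates above 0 that did not pass.

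Other surface molecules were lower as well. Thy1, which encodes the glycoprotein CD90, stood at 47.4, 31.1 and 38 CPM in control and 10.5, 12, 15.4 and 14.1 CPM in cKO libraries (log2 fold change −1.58, SE 0.285, adjusted p = 0.00314). Gpc1, for the heparan sulfate proteoglycan glypican 1, stood at 93.5, 69.4 and 64.1 CPM in control and 25.7, 22.2, 23.7 and 27.6 CPM in cKO, again without overlap (log2 fold change −1.61, SE 0.263, adjusted p = 0.000921). Pilrb1, for an activating receptor of the paired immunoglobulin-like type, had the largest decrease of the named genes at a low level. It stood at 4.51, 5.37 and 6.21 CPM in control and at 0.152, 1.1, 0.517 and 0.593 CPM in cKO libraries (log2 fold change −3.13, SE 0.447, adjusted p = 0.000114). Pilrb1 shares exon bases with a predicted gene on the other strand that was also called lower. Tmem154, for a membrane protein of unclear role, fell by 1.29 on the log2 scale (adjusted p = 0.00219), from 44.2 to 53.1 CPM in control to 16 to 27.3 CPM in cKO.

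Thy1 was the single called member of 46 surface receptors and markers of NK cells, whose median was −0.15, the same as that of all genes over 30 CPM. The activating receptors Ncr1 (−0.81) and Klrk1 (0.05) and the NK1.1 gene Klrb1c (−0.02) did not pass. None of 17 integrin chains was called, with a median of −0.33. Itgam, for the CD11b chain that the gate excluded, stood at 165, 107 and 83.2 CPM in control and at 70, 57.7, 53.4 and 57.7 CPM in cKO, without overlap but above the threshold (log2 fold change −0.99, adjusted p = 0.0646). The adhesion genes Jaml and L1cam and the costimulatory receptor gene Tnfrsf9 (4-1BB) were among the 70 lower genes. Their calls were lost in 4, 6 and 7 of the 7 leave-outs, with an adjusted p up to 0.174, 0.18 and 0.216.

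Clnk, an adaptor of the SLP-76 family that works below immunoreceptors, stood at 62.2, 64.7 and 49.5 CPM in control and 22.4, 17.5, 25 and 18.9 CPM in cKO libraries (log2 fold change −1.49, SE 0.213, adjusted p = 0.000114). Cd247, for the CD3 zeta chain through which several NK receptors also signal, stood at 162, 168 and 133 CPM in control and 83.9, 52.7, 64.1 and 84.2 CPM in cKO. It fell by 1.11 on the log2 scale (SE 0.208, adjusted p = 0.00453), the sole call among 17 T cell markers. The T cell genes Cd3e and Cd3d were at 1.1 to 6.76 and 24.7 to 39.8 CPM over the 7 libraries, with estimates of 0.11 and −0.07. The exons of Cd247 share bases with those of Pou2f1 on the other strand, so part of its count may be from that gene.

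Rgl1, which encodes an exchange factor for Ral GTPases, stood at 55.6, 60.6 and 65.7 CPM in control and 27.4, 15.7, 19 and 15.1 CPM in cKO libraries (log2 fold change −1.66, SE 0.246, adjusted p = 0.000212). Stk39, for a kinase that controls chloride cotransporters, stood at 66.5, 78.3 and 67.9 CPM in control and 35.3, 25.1, 28.1 and 30.8 CPM in cKO libraries (log2 fold change −1.25, adjusted p = 0.00114). The kinase gene Stk32c fell by 1.56 on the log2 scale (adjusted p = 0.0031), from 18.6 to 29.4 CPM in control to 5.85 to 10.2 CPM in cKO. None of the 3 overlapped between genotypes. Ppm1j, for a phosphatase, fell by 1.34 on the log2 scale, a call lost without control replicate 1 (adjusted p = 0.0958) or 2 (adjusted p = 0.057). It overlaps Fam19a3, a secreted protein gene that was also called lower. None of 26 feedback phosphatases and regulators of G protein signalling was called, and their median was −0.19.

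**Figure D2:**
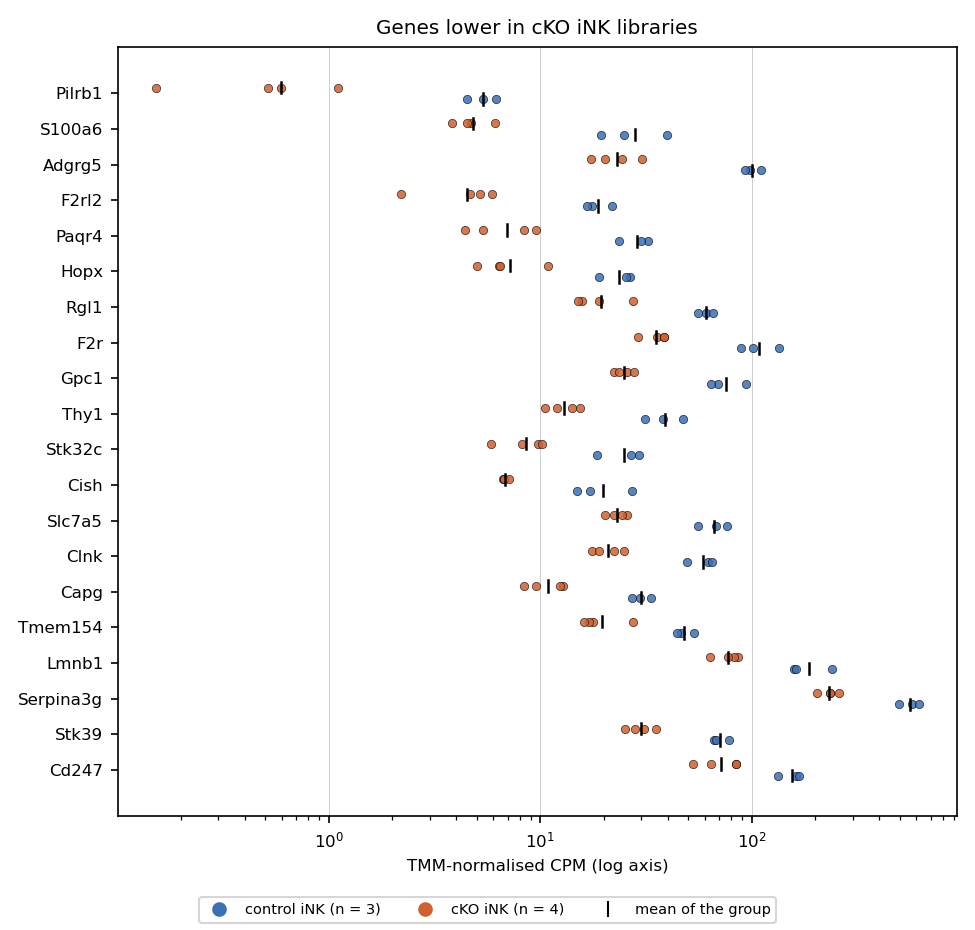
TMM-normalised CPM (horizontal log axis) of the 20 genes outside the effector and cell cycle lists that were lower in cKO iNK in each setting that tested them. Each point is a library, blue for control (n = 3) and orange for cKO (n = 4), and each black bar is the mean of a group. In every gene shown the 3 control libraries lie above the 4 cKO libraries.

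Calcium-binding and cytoskeletal genes included S100a6, a small calcium sensor of the S100 family. It stood at 39.6, 19.4 and 25 CPM in control and at 3.81, 4.69, 4.52 and 6.1 CPM in cKO, and the lowest control was over 3 times the highest cKO library (log2 fold change −2.53, SE 0.329, adjusted p = 5.45e-05). Capg, for an actin-capping protein, stood at 33.4, 29.6 and 27.1 CPM in control and 9.59, 12.8, 8.4 and 12.5 CPM in cKO libraries (log2 fold change −1.47, SE 0.254, adjusted p = 0.00183). Lgals3, for the sugar-binding protein galectin 3, fell by 1.63 on the log2 scale, from 26.2 to 43.4 CPM in control to 9.83 to 12.9 CPM in cKO. Its call was lost without control replicate 3 (adjusted p = 0.112) or cKO replicate 1 (0.054) or 3 (0.0535). Coro2a, of the coronin family of actin regulators, fell by 1.21, and was lost without control replicate 2 (adjusted p = 0.0725) or cKO replicate 4 (0.0542).

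These 4 were the called members of 42 genes of this kind, of which 41 had an estimate below 0 and the median was −0.53. For comparison, 75.5% of genes over 30 CPM had an estimate below 0, with a median of −0.15. The list was chosen with earlier results of these data known, so this contrast is a description and no independent test. S100a6 did not stand for its family, since S100a4 (−0.15), S100a10 (−0.4) and S100a11 (−0.48) did not pass. The related Lgals1 had an estimate of −1.08 and an adjusted p = 0.126.

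Slc7a5, for the transporter that takes up leucine and other large amino acids, stood at 55.8, 67.6 and 76.2 CPM in control and 20.2, 22.2, 25.7 and 24.4 CPM in cKO libraries (log2 fold change −1.52, SE 0.24, adjusted p = 0.000522). Its partner chain Slc3a2 did not pass (−0.4). Psat1, an enzyme of serine synthesis, stood at 93.7, 107 and 119 CPM in control and 63.6, 55.9, 50.4 and 62.5 CPM in cKO libraries (log2 fold change −0.88, adjusted p = 0.0292), a call lost in all 7 leave-outs, with an adjusted p up to 0.157. Phgdh, the first enzyme of the same pathway, had an estimate of −0.78 and an adjusted p = 0.0806. Slc7a5 and Psat1 were the called 2 of 35 genes of nutrient transport and amino acid metabolism, 33 of which had an estimate below 0, with a median of −0.41.

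Other growth-related lists had 1 call. None of 28 ribosome biogenesis genes, 26 genes of oxidative phosphorylation and 20 of glycolysis was called, and their medians were −0.41, −0.35 and −0.35. All 28 of the first and all 26 of the second had an estimate below 0. Of 24 chaperones and genes of the unfolded protein response, Sdf2l1 was called lower and the median was −0.42, but Sdf2l1 passed in only 1 of 7 leave-outs, with an adjusted p up to 0.106. Genes of these lists are strongly expressed, and the values are to be read against the median of −0.19 above 100 CPM.

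Serpina3g, for an intracellular inhibitor of proteases, was the most strongly expressed per kilobase of the 20 lower genes that were called in each setting. It stood at 574, 616 and 495 CPM in control and 235, 203, 259 and 234 CPM in cKO libraries (log2 fold change −1.27, SE 0.232, adjusted p = 0.00346). Per kilobase of exon its mean was 267 CPM in control, against 63.2 CPM for Lmnb1, the next in that order, and 2.74 CPM for Pilrb1, the lowest. Lmnb1, which encodes the nuclear envelope protein lamin B1, stood at 159, 162 and 241 CPM in control and 86.3, 82.6, 77.4 and 63.2 CPM in cKO libraries (log2 fold change −1.28, adjusted p = 0.00122). Lmna, for the other lamin type, had an estimate of −0.17 that did not pass. Tmem163, for a zinc transporter, fell by 1.38 on the log2 scale, a call lost without control replicate 2 (adjusted p = 0.0585). Padi4, an enzyme that converts arginine to citrulline in histones, fell by 1.31, a call lost without control replicate 1 (adjusted p = 0.0889) or cKO replicate 3 (0.0589) or 4 (0.0577). The other lower genes were Abcb1a (−1.31), for the drug efflux pump P-glycoprotein, Errfi1 (−1.21), for an inhibitor of the EGF receptor, Prr5l (−1.02), of the mTORC2 complex, and Serpinb9b (−1.10), of the serpins. Tmem109 (−1.16), Nek6 (−1.55), Jpt2 (−1.09), Kbtbd11 (−0.92), Dnajc15 (−1.09), Plp2 (−0.92) and Farp1 completed the 50. These 11 calls were lost in 2 (Tmem109), 3 (Abcb1a), 5 (Nek6, Jpt2, Prr5l), 6 (Errfi1, Serpinb9b, Kbtbd11) or all 7 (Dnajc15, Plp2, Farp1) leave-outs. Without control replicate 1 the adjusted p was 0.491 for Abcb1a and 0.460 for Errfi1.

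Division genes beyond the usual markers were also among the 70. Chaf1a, of the chromatin assembly factor, and Tcf19 fell by 1.11 and 1.21 on the log2 scale. The Chaf1a call was lost without control replicate 3 (adjusted p = 0.114), and that of Tcf19 without control replicate 3 (adjusted p = 0.102) or cKO replicate 1 (0.0534) or 3 (0.0592). Ncapg2, Tacc3, Cep55 and Gmnn, which serve chromosome condensation, the spindle, abscission and the licensing of replication, were lost in 3 to 7 leave-outs. Of 46 well-known cell cycle genes 11 were called lower, with a median of −0.80, and each of the 11 calls was lost in 2 (E2f8) to 7 (Mki67) of the 7 leave-outs. Of 16 cytotoxic effectors 3 were called (Gzma, Gzmb and Ifng), with a median of −0.38. Gzma and Gzmb held in every leave-out, and Ifng was lost in 5, with an adjusted p up to 0.243.

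Of 48 lymphoid transcription factors tested, 2 were called higher (Id3 and Irf4) and Hopx lower, and the median was −0.01. Hopx, for a small homeodomain protein without DNA binding, stood at 26.6, 18.9 and 25.5 CPM in control and 5.02, 6.35, 6.46 and 10.9 CPM in cKO libraries (log2 fold change −1.69, SE 0.293, adjusted p = 0.00183). Its exons share bases with the antisense gene Hopxos. Id3, an inhibitor of E proteins, was higher, at 6.22, 3.26 and 3.5 CPM in control and 26.2, 13.9, 17.7 and 28.1 CPM in cKO libraries (log2 fold change 2.31, SE 0.351, adjusted p = 0.000292). Its relative Id2, which NK cells need, had an estimate of −0.75 and did not pass. Irf4 was higher at low levels, with 1.86 to 3.66 CPM in control and 7.89 to 10.4 CPM in cKO, and the call was lost without control replicate 1 (adjusted p = 0.121) or 2 (0.125) or cKO replicate 1 (0.0529). The NK lineage factors Tbx21 (−0.28) and Eomes (0.14) did not pass. The sign of Tbx21 turned with the background covariate, and that of Eomes without control replicate 3.

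**Figure D3:**
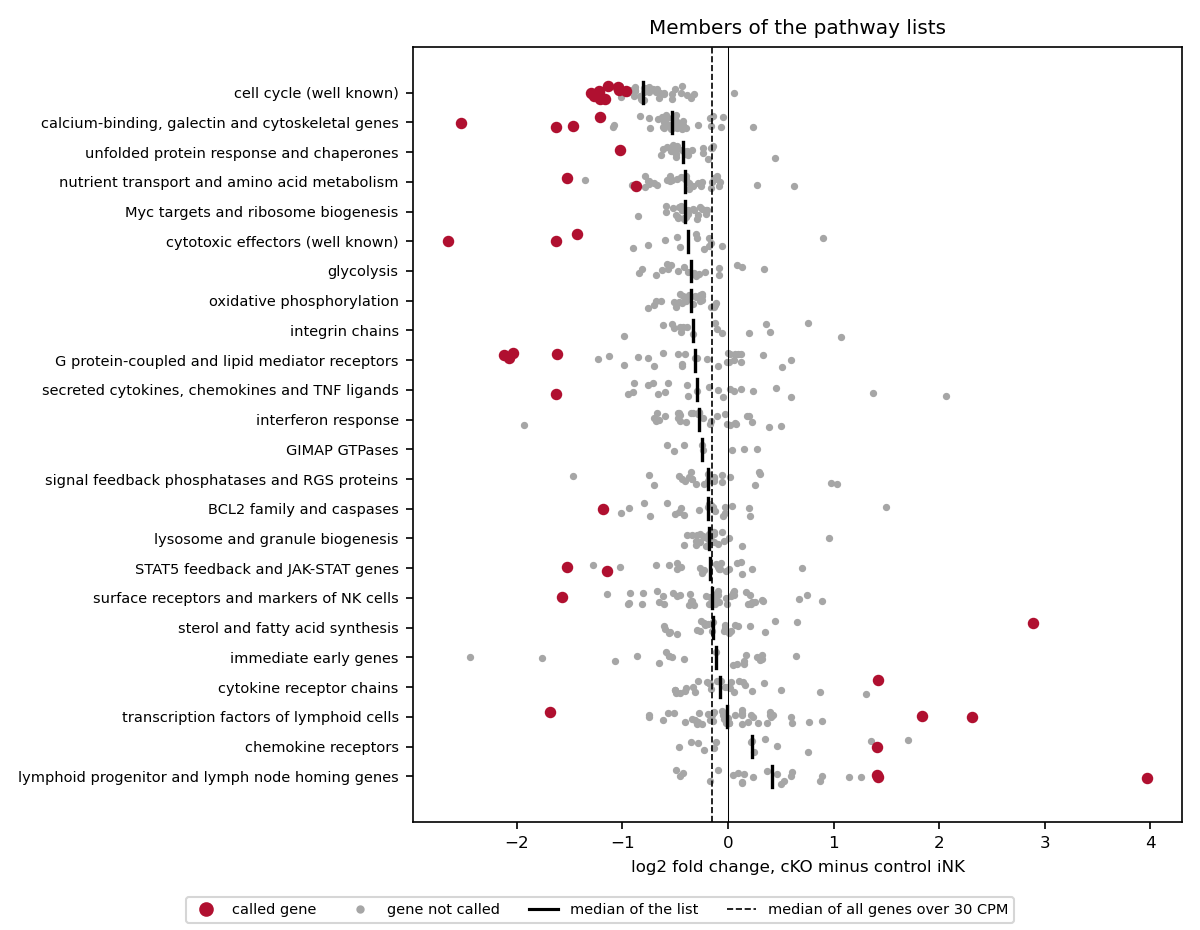
Log2 fold change of cKO minus control iNK (horizontal axis) for each tested member of the 24 pathway lists (rows, ordered by median). Red points are called genes, grey points genes that were not called, black bars list medians, and the dashed line is the median of all genes over 30 CPM, −0.15. Most medians lie close to or to the left of that line, and those of the cell cycle (−0.80) and calcium-binding (−0.53) lists lie farthest to its left. The lists were chosen with earlier results of these data known.

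The higher genes were led by B-lineage and MHC class II genes, and every higher gene below is given with that in view. Of 27 such markers tested 15 were called higher, none lower, and the median was 2.16. Their summed level was 797, 900 and 605 CPM in control and 1802, 1250, 1709 and 1918 CPM in cKO, and none of the markers was at 0 in any iNK library. Ighm and Cd72, the most abundant on the list in controls, accounted for much of the control sum and were not called (0.47 and 0.14). Cd79a, whose protein carries the signal of B cell receptors, stood at 4.82, 2.77 and 1.43 CPM in control and 41.9, 24.1, 27.5 and 52 CPM in cKO. Of the class II genes, H2-DMb2, H2-Ob, H2-Ab1, H2-Aa and H2-Eb1 on chromosome 17 were called higher, that of H2-Ob being lost in 6 of 7 leave-outs (adjusted p up to 0.135). H2-Oa (0.59), H2-DMb1 (0.44), H2-Eb2 (0.41) and H2-DMa (−0.16) did not pass. Haemoglobin genes also tended to be higher, with Hbb-bs at 1.27 to 15.8 CPM in control and 30.9 to 262 CPM in cKO. Car2, the most abundant erythroid marker in control, was lower without overlap, at 334 to 374 CPM in control and 192 to 262 CPM in cKO. Of 14 erythroid markers 11 had an estimate above 0 and 3 below, and none was called. Neutrophil and monocyte markers varied within both groups. They summed to 423, 466 and 165 CPM in control and 62.3, 651, 506 and 58.9 CPM in cKO, and none of 15 tested was called. In bulk libraries, more cells of another type and more RNA of these genes per cell cannot be told apart. The part of B-lineage cells in the higher genes was not tested, nor that of neutrophils and monocytes in any called gene.

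Scd1, which encodes the desaturase that makes oleate, had the largest increase of the named genes outside the B-lineage list. It stood at 1.86, 2.12 and 1.91 CPM in control and 15.8, 13.4, 20.6 and 9.07 CPM in cKO libraries (log2 fold change 2.89, SE 0.393, adjusted p = 5.71e-05). It was the 1 called gene of 25 in sterol and fatty acid synthesis, where Scd2 (0.35), Fasn (−0.48) and Srebf1 (−0.27) did not pass and the median was −0.15. Nrp2, for the semaphorin and VEGF coreceptor neuropilin 2, stood at 20.4, 19.1 and 18.1 CPM in control and 55.4, 51.2, 73.8 and 54 CPM in cKO. Its controls were tightly grouped and every cKO library was over 2.5 times the highest of them (log2 fold change 1.61, SE 0.225, adjusted p = 8.86e-05).

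Pls1, for the actin-bundling protein plastin 1, stood at 10.7, 10.7 and 7.64 CPM in control and 30.1, 19.3, 32.1 and 36.5 CPM in cKO libraries (log2 fold change 1.61, SE 0.285, adjusted p = 0.00249). Pter, for a phosphotriesterase-related protein, stood at 18.2, 14.2 and 15.6 CPM in control and 42, 41.4, 36.1 and 53 CPM in cKO libraries (log2 fold change 1.43, adjusted p = 0.00318). The remaining 3 higher genes called in each setting were Id3, above, Siglecg, for an inhibitory sialic acid receptor also found on B cells, and the class II chaperone gene H2-DMb2. Siglecg stood at 1.71 to 8.47 CPM in control and 21.5 to 35.2 CPM in cKO. Eepd1 and Mturn, at 41.8 to 69.9 and 37.1 to 67.4 CPM in cKO, rose by 1.46 and 1.52 on the log2 scale. The first was lost without control replicate 1 (adjusted p = 0.0603) and the second without control replicate 3 (adjusted p = 0.0633).

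Ccr7, for the chemokine receptor of lymph node homing, was the called 1 of 15 chemokine receptors, at 11, 13.4 and 9.71 CPM in control and 33, 16.4, 34.9 and 36.2 CPM in cKO. The call was lost in 6 of 7 leave-outs, all but that of cKO replicate 2, with an adjusted p up to 0.112. Cxcr5, which guides cells to B cell follicles, had an estimate of 1.71 and an adjusted p = 0.115, and Cxcr3 (−0.23) and Cxcr6 (0.25) did not pass. Of 24 genes of lymphoid progenitors and lymph node homing, 3 were called higher (Ccr7, Il7r and Ly6d) with a median of 0.42, and Ly6d is on the B-lineage list too. The summed level of 11 stem and progenitor cell markers, 3 of which (Kit, Flt3 and Cd34) are also on that list of 24, was 126 to 198 CPM in control and 235 to 267 CPM in cKO iNK, without overlap. None of the 11 was called or at 0 in an iNK library, 10 had an estimate above 0, the median was 0.50, and their part in these results was not tested. Tcf7 (0.59) and Kit (0.87) did not pass. Pou2af1 and Btla, both expressed by B cells, and Chst15, Adgrl4, Slc37a2, Kcnc1, Cdh24, Nos1ap, Apol7b and H2-Ob made up the rest of the 22. These calls were lost in 3 (Chst15, Nos1ap), 5 (Pou2af1, Btla, Adgrl4, Slc37a2, Apol7b), 6 (Kcnc1, H2-Ob) or all 7 (Cdh24) of the leave-outs.

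The 4 cKO libraries differed in these genes. Replicate 2 was the lowest of the 4 in 12 of the 14 named higher genes on the B-lineage list, and in 14 of the 22 that were not on it. Scd1, Il7r and Irf4 were among the exceptions, with their lowest cKO values in replicates 4, 1 and 3. Replicate 2 also had the lowest summed B-lineage level, at 1250 CPM, and the most background reads, at 3036 CPM. Low sums in replicate 2 were not particular to B-lineage genes. Its NK cell marker sum was the lowest too, at 9303 CPM against 11858 to 13778 CPM in the other cKO libraries. So were its T cell, dendritic, erythroid, other innate lymphoid and progenitor sums. Its neutrophil, megakaryocyte, mast cell and stroma sums were the highest. The share of all genes that were lowest in replicate 2 was not counted.

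**Figure D4:**
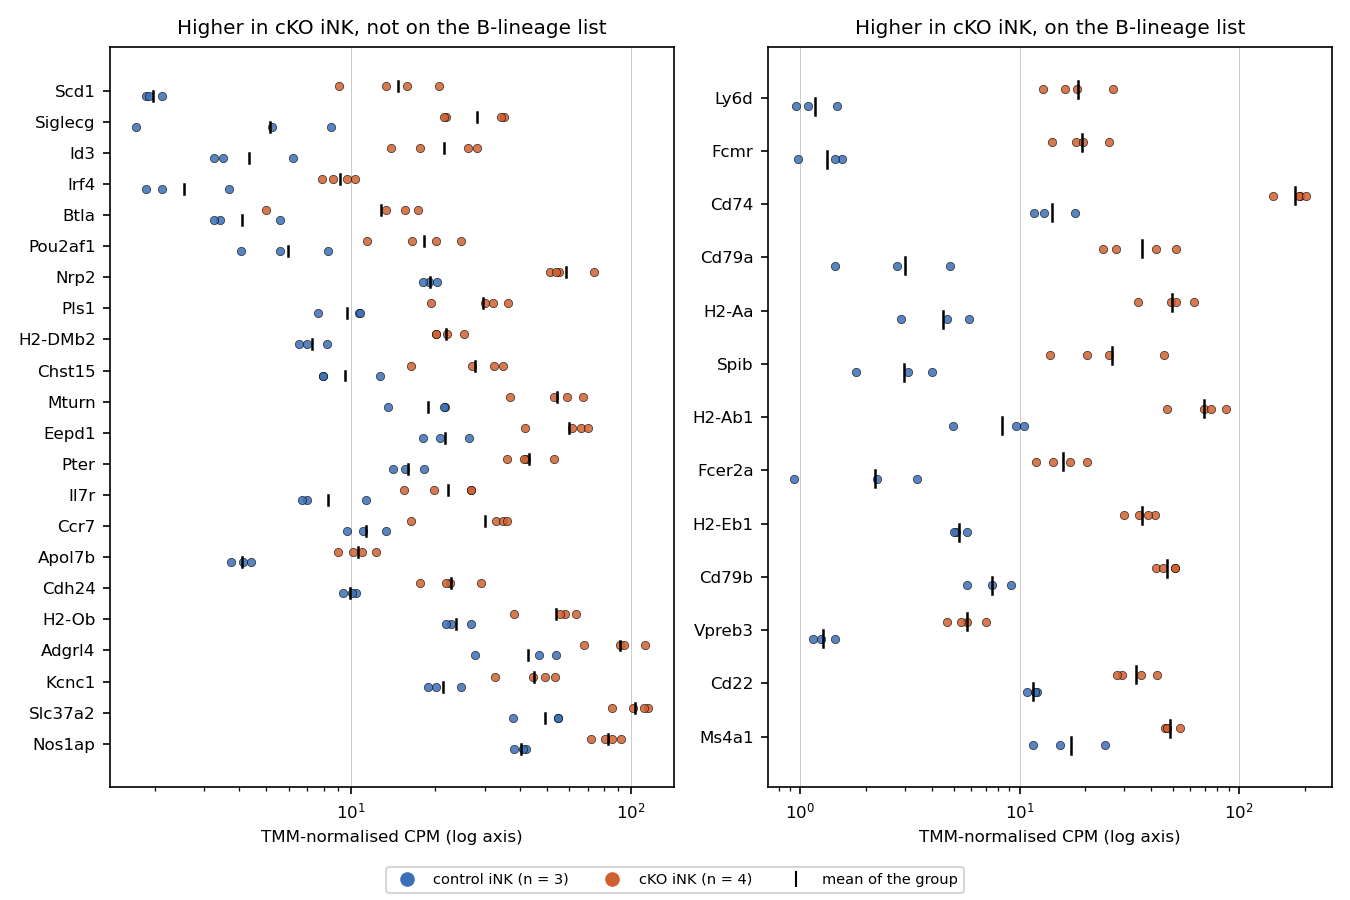
TMM-normalised CPM (horizontal log axes) of 35 named genes that were higher in cKO iNK, with 22 that are not on the B-lineage list on the left and 13 that are on the right. Points are libraries (blue, control, n = 3; orange, cKO, n = 4) and black bars are group means. In 34 of the 35 genes, all but Btla, the cKO libraries lie above the controls.

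Whether these changes differed between iNK and iILC1 cells was tested as the genotype effect in iILC1 minus that in iNK, which called 21 of all genes (0.0778%). Among the 40 higher genes 15 were called, and among the 70 lower genes 5. The iNK and iILC1 comparisons share no library. The genotype itself called 13 genes in iILC1 (0.0482%), and these held 4 of the 40 higher and 3 of the 70 lower iNK genes in the same direction. The 4 higher were the class II genes H2-Aa, H2-Ab1 and H2-Eb1 and the class II chaperone gene Cd74, with estimates of 1.31 (H2-Ab1) to 1.4998 (H2-Aa) in iILC1 (adjusted p 0.0046 to 0.018). The 40 higher genes had a median log2 fold change of 1.63 in iNK and 0.15 in iILC1, and the 70 lower genes medians of −1.27 and −0.32. Since the genes were picked for their change in iNK, these medians do not show a difference. The interaction tests compare the 2 effects directly, with adjustment over all genes. They use the same iNK libraries, so counts and sizes of differences among the picked genes carry that selection too.

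Adgrg5 stood at 267, 205 and 257 CPM in control iILC1 and at 344, 221, 204 and 251 CPM in cKO iILC1, where the groups overlapped. Its genotype effect was higher by 2.20 on the log2 scale in iILC1 than in iNK (SE 0.324, adjusted p = 0.00126). Tmem154 had an estimate of 0.61 in iILC1 against −1.29 in iNK, a difference of 1.90 (SE 0.321, adjusted p = 0.00608). Both calls held in each leave-out. For Clnk the difference was 1.602 (SE 0.301, adjusted p = 0.0174), and it was lost without control replicate 1 or 2 or cKO replicate 4, with an adjusted p up to 0.0824. These were the 3 named lower genes with a called difference.

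Nrp2 stood at 14 to 19.3 CPM in control and 11.9 to 16.2 CPM in cKO iILC1, a difference of −1.80 between the effects (SE 0.316, adjusted p = 0.00866). Scd1 stood at 5.14 to 5.82 CPM in control and 2.44 to 5.31 CPM in cKO iILC1, a difference of −3.43 (SE 0.53, adjusted p = 0.00218). Both also held in each leave-out. The difference was called for 9 of 27 B-lineage and class II genes, among them Ly6d at 1.82 to 3.78 CPM in control and 0.379 to 2.53 CPM in cKO iILC1 (difference −5.02, adjusted p = 0.000571). The differences of Siglecg (−2.77), Id3 (−2.46), Irf4 (−2.47) and Slc37a2 (−1.64) were lost in 2, 5, 6 and 6 of 7 leave-outs, with an adjusted p up to 0.0603, 0.179, 0.223 and 0.114.

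For most lower genes no difference between the cell types was called. S100a6 was at 47.4 to 74.8 CPM in control and 21.6 to 62.5 CPM in cKO iILC1, with an estimate of −0.50 there and an adjusted p = 0.122 for the difference. For F2r the estimates were −1.62 in iNK and −0.13 in iILC1 (adjusted p = 0.2 for the difference), and for Cish −1.52 and −0.28 (adjusted p = 0.386). Slc7a5 had −1.52 and −0.99 (adjusted p = 0.727). The 3 lower genes called in both cell types were Gzma, Gzmb and Tmem163, and the estimates of Tmem163 were −1.38 in iNK and −1.75 in iILC1.

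**Figure D5:**
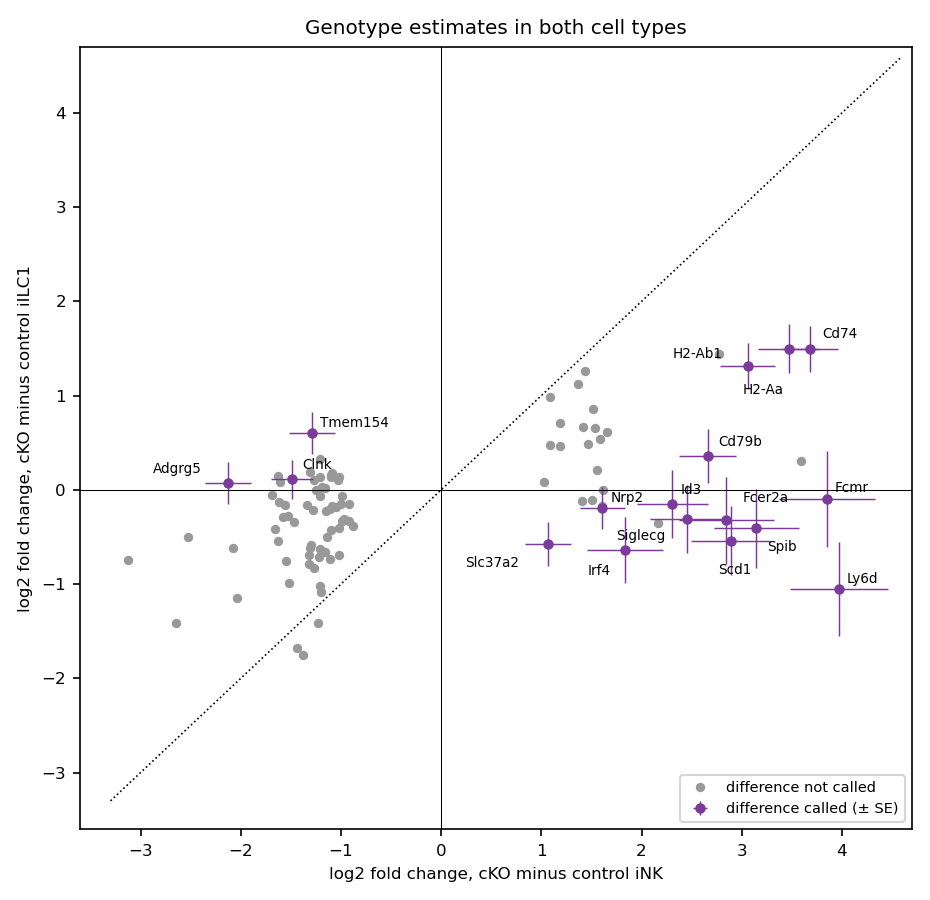
Log2 fold change of cKO minus control in iILC1 (vertical axis) against that in iNK (horizontal axis) for 99 named genes called in iNK. Purple points with SE bars are genes whose difference between the cell types was called, the dotted line marks equal effects, and Adgrg5, Clnk and Tmem154 lie near or above 0 in iILC1.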

How the data were processed

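RNA of 2000 sorted cells per sample was amplified with SMART-Seq v4 and tagged with Nextera XT, per the labels' protocols, and neither kit marks strand. The authors deposited a matrix of unnormalised read counts, 1 row for each Ensembl gene, with exon length in bases per the file headers, which gave the levels per kilobase. Per the submitters' processing notes, the tools were HISAT2 2.1.0, Trimmomatic 0.33 and featureCounts (Subread 1.6.5), with the mm10 build. Annotation release, strand setting and handling of multi-mapping reads: not given in the sources used here. Of 46078 genes, 45143 (97.97%) matched a symbol. 

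Genes were kept by filterByExpr (minimum count 10, total 15) and tested with edgeR 4.0.16 (R 4.3.3; TMM, robust quasi-likelihood fit, two-sided, 14 libraries, 1 mean per group, 10 residual degrees of freedom, common coefficient of variation 30.0%). Alternatives used DESeq2 1.42.0, other scaling and filters, and omitted libraries. In simulated counts for the iNK genotype comparison of 26990 genes, 100 genes were changed 2-fold and 100 changed 4-fold. The changed genes were drawn from those with a control iNK mean over 10 CPM. Of the 2 sets, 53% and 99% were recovered, with 5 false calls, and recovery at lower levels was not measured. The labels do not say that samples of a group are separate mice, so the p-values rest on the spread among these libraries, which may be technical. Replicates differed by more than sampling noise (chi-square per degree of freedom 4.45 to 23.4).

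Any called gene could be named, except predicted genes, clones and antigen receptor segments. The rule for values per library covered the 12 higher and 16 lower genes with the largest change (mean of 10 CPM or more, no overlap, in no well-known list). It also covered up to 3 called members of each list, and Il15, Il2rb, Il7r, Bcl2, Tbx21, Eomes, Mki67 and Gzmb. For some of these the text gives only a range, an estimate or whether they were called. Genes outside this rule were chosen after their values were seen. The comparison, the 24 pathway and 11 marker lists and the rule were chosen with earlier results of these data known. Values of some genes are not reported here.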

Additional observations from a re-analysis of the deposited data

Results flagged for a closer look

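In 3 genes, 1 cKO iNK library lay apart from the rest of its group by Dixon's 95% criterion. The check covered up to 47 genes, those picked by the rule for values per library. The criterion flags about 1 group in 20 by chance, so 3 flags lie near that share. Cish stood at 7.118 CPM in replicate 4, against 6.7 to 6.76 CPM in the others. Ccr7 stood at 16.42 CPM in replicate 2, below the others at 33 to 36.2 CPM. Ifng stood at 9.83 CPM in replicate 4, above the others at 4.41 to 4.78 CPM.

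The test of the genotype effect in iILC1 minus that in iNK (edgeR's quasi-likelihood test) called the 17 named genes that follow, among others. The effect was higher in iILC1 for Adgrg5 (2.197 on the log2 scale), Tmem154 (1.895) and Clnk (1.602). It was lower in iILC1 for the B-lineage and class II genes Ly6d (−5.02), Fcmr (−3.941), Spib (−3.555), Fcer2a (−3.17), Cd79b (−2.304), Cd74 (−2.182), H2-Aa (−1.969) and H2-Ab1 (−1.749). Among these, 6 of 7 leave-outs ended the call of Fcer2a (adjusted p up to 0.207), and those of H2-Aa and H2-Ab1 ended in 5 each (up to 0.135 and 0.210). It was also lower for Scd1 (−3.429), Siglecg (−2.765), Irf4 (−2.468), Id3 (−2.459), Nrp2 (−1.802) and Slc37a2 (−1.644).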

How the results depend on the processing

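The main count of 110 calls became 124 with RLE factors, 144 without a filter on low counts, 294 with DESeq2 (23.8% higher), 214 with a filter at 5 CPM (26.6% higher), 244 with the 7 iNK libraries alone, 445 with the background covariate (48.8% higher), 149 without control iNK replicate 1 and cKO iILC1 replicate 1, and 85 without marker genes of other cells (24.7% higher). Upper-quartile factors gave 145 and the fit without the robust option 110, and both were chosen after seeing the data. Leaving out single iNK libraries gave 62 to 85 calls, with 62 without cKO replicate 1, 64 without cKO replicate 3, 69 without control replicate 2, and 44 higher and 41 lower without cKO replicate 2. The 21 calls for the difference between cell types became 37 with DESeq2, 37 with the background covariate and 7 without marker genes, and 11 to 21 in leave-outs. The fit without marker genes tested 93 of the 110 calls and kept 85 of them. It also left out the 9 B-lineage list genes that were called for the difference between cell types. Its lower counts thus include genes removed by design. The cause of the other shifts was not tested. With the replicate number as a block, 190 genes were called (57 higher, 133 lower) and 36 for the difference between cell types. Deviations of same-numbered control and cKO iNK libraries correlated at 0.21, −0.18 and −0.01, and those of other pairs at −0.459 to 0.495. Same-numbered iNK and iILC1 libraries of a genotype were not compared. Whether the numbers mark a shared mouse or sort was thus not tested. No call of the 100 named genes changed sign, 41 were kept in each setting that tested them, and 9 were lost in all 7 leave-outs. Of uncalled genes, Tbx21 turned to 0.042 with the background covariate, and in leave-outs Eomes ranged from −0.079 to 0.31 and Il15 from −0.0013 to 0.22, both lowest without control replicate 3.

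Recovery of 53% of 2-fold changes, simulated in genes over 10 CPM, means that smaller changes can be missed at this depth and number of libraries. For genes at lower levels the recovery was not measured. The shift of estimates with level touches lists of strongly expressed genes most.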

Other observations

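Several genes just beyond the threshold were chosen after their values were seen. Isg15, an interferon-induced ubiquitin-like protein, stood at 4.04, 4.07 and 4.61 CPM in control and 0.304, 0.69, 0.905 and 2.2 CPM in cKO iNK, without overlap (log2 fold change −1.93, edgeR adjusted p = 0.0646). None of 32 interferon response genes was called in edgeR, their median was −0.28, and the next lowest estimate after Isg15 was that of Gbp4 (−0.70). Slc29a1, a nucleoside transporter, stood at 42.1, 53.6 and 54.4 CPM in control and 31.8, 18.6, 28.7 and 27 CPM in cKO (−0.91, edgeR adjusted p = 0.0686). Lta, for lymphotoxin alpha, stood at 1.11 to 1.3 CPM in control and 2.46 to 8.37 CPM in cKO (2.07, edgeR adjusted p = 0.083).

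Further pairs of neighbouring genes moved the same way in iNK. Bcl2l1 and Tpx2 on chromosome 2 lie 16236 bases apart, and Errfi1 and Tnfrsf9 on chromosome 4 lie 45670 bases apart, each pair lower in cKO. The call of Bcl2l1 held in 6 of 7 leave-outs, those of Tpx2 and Errfi1 in 1 each and that of Tnfrsf9 in 0. How often called genes would lie this close by chance was not tested.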
